A study of Macaca fascicularis with 20 samples.

Results

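The genes of the proteasome and of the enzymes that activate and conjugate ubiquitin were followed across sorted spleen lymphocytes of cynomolgus macaques (Macaca fascicularis), namely natural killer (NK) cells in 4 subsets and B cells. Members were taken by name: proteasome subunits, regulators and assembly chaperones (symbols beginning with PSMA to PSMG followed by a digit), activating enzymes (UBA followed by a digit) and conjugating enzymes (UBE2). Of 92 genes with such names in the RefSeq gene table of the species, 45 were represented by a matched probe, among 12530 matched genes in all. They comprised 3 of 8 alpha and 5 of 11 beta subunits of the 20S core. For the 19S regulator they were 2 of 6 ATPases and 7 of 14 other genes (PSMD), which include assembly factors such as PSMD10. Further members were 2 of 5 activators and inhibitors and 3 of 4 assembly chaperones named PSMG. The enzymes were 5 of 6 activating (E1) and 16 of 35 conjugating (E2) enzymes. The remaining 2 fit the name pattern only, among them PSMC3IP, which acts in meiotic recombination. PSMB5, PSMB7, PSMB9, PSMB10, PSME1, PSME3, PSMF1, UBE2N and UBE2V2 had no matched probe and were not analysed here.

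The proteasome is a barrel-shaped protease that degrades proteins marked with ubiquitin. Its 20S core holds the catalytic beta subunits, and the 19S regulator recognises, unfolds and admits the substrate. Ubiquitin is activated by an E1, passed to an E2 and attached to the substrate with the help of a ligase. SUMO, NEDD8 and ISG15 are ubiquitin-like proteins with E1 and E2 enzymes of their own. In lymphocytes the proteasome also makes the peptides shown on MHC class I, and interferon induces the alternative catalytic subunit PSMB8 and the activator subunit PSME2.

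Cells were unstimulated and came from cryopreserved spleen. NK cells were live CD45+ cells without CD3, CD14, CD20 or HLA-DR that carried NKG2A and CD8a, divided by surface CD27 and CD11b into CD27lo CD11blo cells (double-low, 4 arrays), CD27+ CD11blo cells (CD27 single positives, 4 arrays), CD27+ CD11b+ cells (double positives, 5 arrays) and CD27lo CD11b+ cells (CD11b single positives, 5 arrays). B cells were HLADR+ CD20+ cells without NKG2A and CD8a (2 arrays). The labels give the animals of replicate 1 as males of 4 years and those of replicate 2 as males of unknown age. Replicate 3 carries ages of 9, 10, 11 and 12 years in the 4 subsets, all male. Replicate 4 is an 18-year female in the CD11blo subsets and a 5-year male in the CD11b+ subsets, replicate 5 is an 18-year female, and the B cells come from females of 5 and 18 years. The labels do not say whether arrays of 1 number share an animal, so p-values measure the spread between arrays. The labels name no treatment. In such sorted bulk samples, fewer cells of a type and less RNA per cell cannot be told apart.

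Each array measured 1 RNA sample with 1 dye, from 50 ng of total RNA that was amplified before labelling. Levels are log2 signal minus the log2 of the 75th percentile of the array, so a level of 0 lies at that percentile and 1 unit is a doubling. The level of 1 probe cannot be set against that of another. Arrays stood on 3 slides: slide 1 held replicates 1 and 2 of the NK subsets, slide 2 replicate 3, replicate 4 of the CD11blo subsets and the B cells, and slide 3 replicates 4 and 5 of the CD11b+ subsets. The 75th percentile ranged from 180.0 to 1897 intensity units, and double-positive replicate 4 (180.0) and double-low replicate 4 (199.6) were the dimmest. Of 14 NK markers listed, 13 were measured, with a summed level of 6.04 to 8.19 on NK arrays and 2.77 to 2.86 on B cell arrays. Of 10 B cell markers, 8 were measured, at 0.69 to 3.30 on NK arrays and 5.70 to 5.83 on B cell arrays.

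All 45 members passed the filter on dim probes. On all 20 arrays 32 of them were well above background, the other 13 were so on 18 or 19 arrays, and none was saturated. Double-positive replicate 4 had 9 members short of that mark, the most of any array. The median within-subset SD of the members was 1.11 on the log2 scale against 0.90 for all genes, and 31 of 45 lay above the latter. PSMD7, a lid subunit of the 19S regulator, varied least (0.43), followed by UBE2D4 (0.47) and UBE2D1 (0.51). PSMB2, a structural beta subunit, varied most (2.12). Its levels were -1.84, -1.06, 0.24 and -6.26 in double-low cells and -4.24, -2.32, 0.17 and 0.99 in CD27 single positives. In double positives they were -3.61, -0.09, -0.57, 0.80 and -0.06, and in CD11b single positives -3.22, -2.57, -0.11, 0.58 and -1.02. These values overlapped between all subsets. Double-positive replicate 4 held the lowest of the 20 levels for 12 members and CD27 single-positive replicate 4 the highest for 10.

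**Figure D1:**
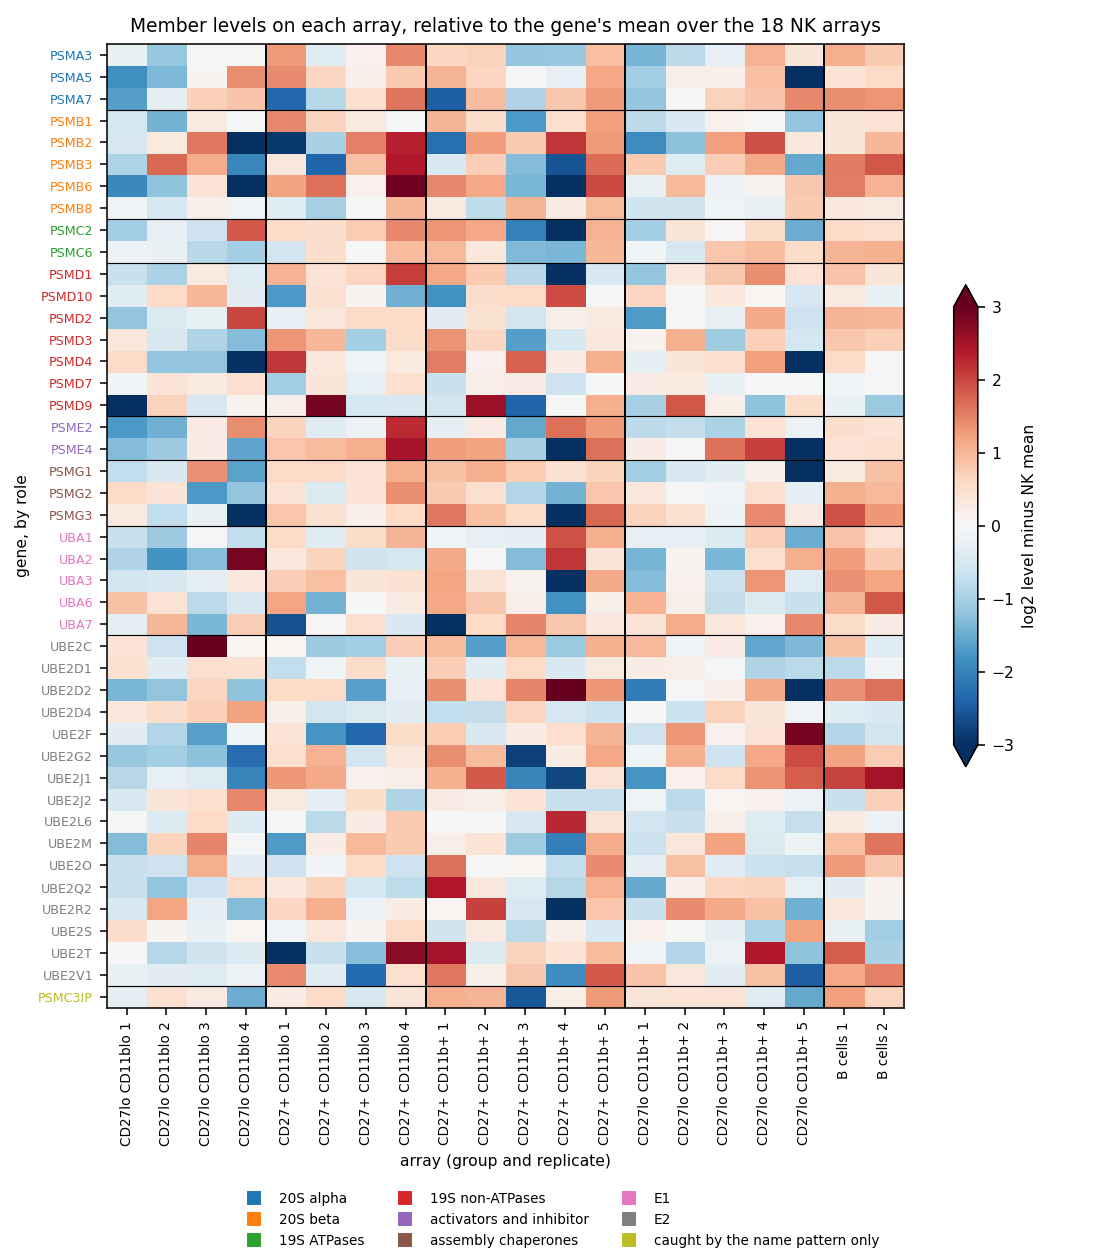
Level of 44 members (rows, by role) on each of the 20 arrays (columns, by group and replicate), as log2 level minus the gene's mean over the 18 NK arrays (colour, capped at -3 and 3). Single arrays such as CD27+ CD11b+ replicate 4 stand apart in many rows, and most rows are above their NK mean on both B cell arrays (36 and 34 members).

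The comparison of NK cells with B cells asked where the members stand relative to another lymphocyte of the same organ. None of the 45 members passed the threshold (limma, adjusted p below 0.05 over 12383 genes), against 2.92% of all genes. At an unadjusted p below 0.05 there were 2 members, UBE2J1 and UBA6, against 22.7% of all genes. The estimates nonetheless lay mostly on 1 side: 37 of 45 were below 0, toward B cells, with a median of -0.59, whereas 59.1% of all genes were above 0 with a median of 0.36. Relative to that median, 40 members were lower and 5 higher. Among the 3355 genes whose mean signal lies between the quartiles of the members, the median was 0.04, and 1356 were above the all-gene median. On each array, the members' median deviation from their NK means was also set against that of all genes. The excess was 1.15 and 0.98 on the B cell arrays and -0.83 to 1.32 on NK arrays. Double-positive replicates 5 (1.32) and 1 (1.27) lay above both B cell arrays. These arrays had 75th percentiles of 1369 and 1897, and the B cell arrays 1650 and 1449. The part of array signal was not tested.

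In the 20S core, all 8 measured subunits had estimates below 0, from -1.69 for PSMB3 to -0.31 for PSMB8, with a median of -0.83. Second probes gave -0.70 for PSMB3 and, for PSMB6, -1.60 against -1.30 with the chosen probe. PSMA7, an alpha subunit, stood at 2.64 and 2.57 on the B cell arrays and at -1.19 (lowest), 1.85 (median) and 2.85 (highest) on the 18 NK arrays. The NK range took in both B cell values, and the difference of -1.37 ± 0.91 (SE) did not pass (adjusted p = 0.348). PSMB8, the interferon-inducible catalytic subunit, had B cell levels of 2.97 and 2.92 inside the NK range of 1.66 to 3.67 (median 2.54), and a difference of -0.31 ± 0.47.

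In the 19S regulator, 7 of 9 estimates were below 0. PSMC6, an ATPase of the base, was at 1.47 and 1.51 in B cells and at -0.92 to 1.45 (median 0.39) in NK cells. The groups did not overlap, by a margin of hundredths, and the difference was -1.06 ± 0.57 (adjusted p = 0.268). Non-overlap with NK below B cells was found for 2 members, PSMC6 and UBE2J1, against 3.19% of all genes. PSMD9 (0.64) was above 0. PSMD7 gave 0.10 with its chosen probe and -0.35 with its second, and no direction is given for it. The activator subunits PSME2 (-0.45 ± 0.77) and PSME4 (-0.43 ± 1.29) were within their error of 0. All 3 PSMG assembly chaperones were below 0, from -1.63 (PSMG3) to -0.55 (PSMG1).

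All 5 E1 enzymes had estimates below 0, with a median of -1.04. UBA6, an alternative E1 of ubiquitin, was at -1.81 and -0.96 in B cells and at -4.63 to -1.64 (median -2.65) in NK cells. The upper B cell array lay above the NK range and the lower inside it, and the difference was -1.44 ± 0.69 (adjusted p = 0.219). UBA1, the main E1 of ubiquitin, gave -0.66, UBA2 (SUMO) -1.04, UBA3 (NEDD8) -1.26 and UBA7 (ISG15) -0.43.

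The 16 E2 enzymes were spread on both sides, with 10 below 0 and a median of -0.21. UBE2J1, an E2 anchored in the membrane of the endoplasmic reticulum that serves the disposal of misfolded proteins there, had the largest difference of any member. It stood at 1.08 and 1.55 in B cells. In NK cells it was -1.77, -1.18, -1.33 and -2.93 in double-low cells, 0.37, 0.21, -0.80 and -0.77 in CD27 single positives, 0.13, 0.91, -2.94, -3.67 and -0.51 in double positives, and -2.71, -0.82, -0.36, 0.42 and 0.88 in CD11b single positives. All NK arrays lay below both B cell arrays, by -2.26 ± 0.92 or 4.78-fold, with an adjusted p of 0.164. UBE2J2, its relative in the same membrane, showed a difference of 0.00. UBE2G2, another E2 of this disposal pathway, gave -1.04 ± 0.78. UBE2S and UBE2C, which serve the anaphase-promoting complex of dividing cells, gave 0.66 ± 0.42 and -0.24. The markers of proliferating cells (7 of 10 measured) summed to 0.39 to 2.20 on NK arrays and 0.65 to 2.04 on B cell arrays, and none was called in this comparison.

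**Figure D2:**
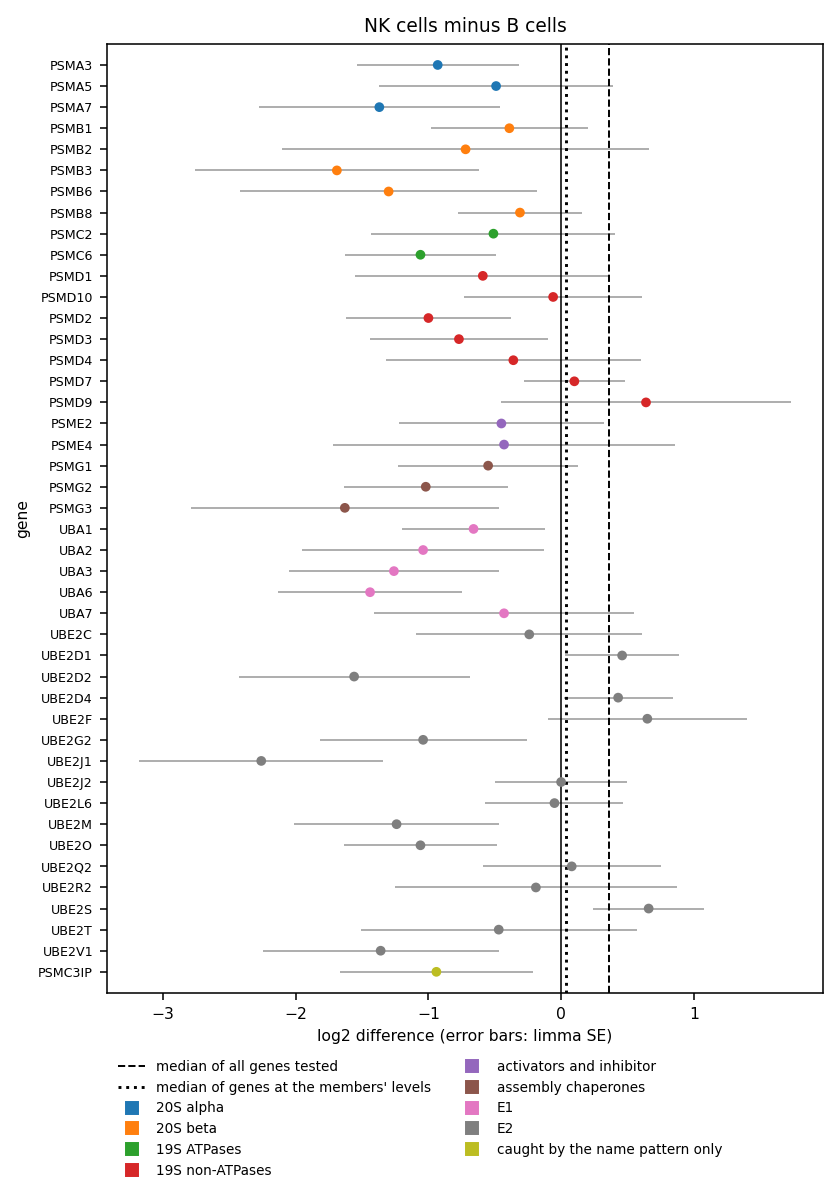
Difference between the mean of the 4 NK subsets and B cells for 44 members (points, coloured by role, with the limma SE as bars), in log2 units, with the median of all genes (dashed, 0.36) and of genes at the members' signal levels (dotted, 0.04). Of 44 points, 36 lie below 0 and 39 below the dashed line.

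Other ways of fitting called some members in this comparison. Within the slide that holds the B cells, UBE2J1 (-2.86, adjusted p = 0.0405), UBE2G2 (-2.31, adjusted p = 0.0420) and UBA6 (-1.69, adjusted p = 0.0466) passed in limma, where 15.8% of all genes did. With the donor as a random block, taken from the origin, sex, age and number in the labels, no member passed (lowest adjusted p = 0.167, limma), against 2.98% of genes. In that fit the replicate 3 arrays were taken as 1 donor although their labelled ages differ. With array weights, which give less weight to arrays far from the fit, 16 members passed against 45.8% of genes: 15 were lower in NK cells and UBE2S was higher. UBE2J1 and UBA6 passed both within the slide and with array weights. The 2 B cell arrays limit what can be said of the spread among B cells.

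Among the 4 NK subsets, none of 45 members and 0% of 12185 genes showed any difference at an adjusted p below 0.05 (limma F test). At an unadjusted p below 0.05 there were 4 members (8.89%) against 8.72% of genes: UBE2D2, PSMG1, UBE2G2 and UBE2D4, each with an adjusted p of 0.56. The median distance between the highest and lowest subset mean was 0.98 for members and 1.06 for all genes.

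The sort on CD27 compared 9 CD27+ with 9 CD27lo arrays, with the CD11b classes weighted alike. No member was called, and 0% of all genes were. At an unadjusted p below 0.05 there were 7 members (15.6%) against 22.1% of all genes. The members' estimates lay mostly toward CD27+ cells while those of most genes lay toward CD27lo cells: 33 of 45 were above 0, with a median of 0.39, against 34.0% of all genes with a median of -0.37. Relative to the all-gene median, 42 members were higher and 3 lower. Of the 3355 genes of similar signal, 2080 were above it, with a median of -0.13.

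PSMG1, a chaperone that helps to assemble the ring of alpha subunits, had the lowest p of the members. Its levels were 0.92, 0.92, 0.73 and 1.42 in CD27 single positives and 1.21, 1.42, 1.10, 0.79 and 1.0 in double positives. In the CD27lo subsets they were -0.40, -0.12, 1.69 and -1.28 in double-low cells and -0.71, -0.16, 0.00, 0.52 and -3.17 in CD11b single positives. The CD27+ arrays lay in a narrow band that 8 of the 9 CD27lo arrays fell below, while double-low replicate 3 was the highest of all. The difference was 1.41 ± 0.44 or 2.66-fold (unadjusted p = 0.00507, adjusted p = 0.198). The other PSMG chaperones gave 0.40 (PSMG2) and 0.48 (PSMG3).

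Of the 20S core, all 8 subunits were above the all-gene median and 6 above 0, with a median of 0.65. PSMB6, a constitutive catalytic subunit, gave 1.26 ± 0.73 with its chosen probe and 1.35 with its second probe. Its CD27+ levels ran from -5.11 to 2.14 (median 0.43) and its CD27lo levels from -4.32 to 0.19 (median -0.96), overlapping widely. PSMA5 gave 1.23 ± 0.57 (adjusted p = 0.223) and PSMB1 0.90 ± 0.39 (adjusted p = 0.214). PSMB8 gave 0.28 ± 0.31.

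In the 19S regulator the largest estimate was that of PSMD4, the subunit that binds ubiquitin chains. Its levels were 3.42, 1.61, 1.15 and 1.59 in CD27 single positives and 2.83, 1.41, 3.05, 1.54 and 2.38 in double positives. They were 1.86, 0.12, 0.10 and -2.49 in double-low cells and 1.01, 1.66, 1.80, 2.51 and -2.41 in CD11b single positives. All CD27+ arrays were above 1, whereas the CD27lo arrays ran from well below them into their range. The difference was 1.69 ± 0.63 (adjusted p = 0.200), and the second PSMD4 probe gave 1.64. Without CD11b single-positive replicate 5 the estimates were 1.27 for PSMD4 and 1.10 for PSMG1, both the smallest on leaving out an array. For PSMD10, an assembly factor of the 19S base also known as gankyrin, the probes differed in sign (-0.37 and 1.0), as they did for PSMD7 (-0.31 and 0.35), and no direction is given for either. PSME2 gave 0.83 ± 0.51 and PSME4 1.20 ± 0.85.

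Of the E1 enzymes, UBA1 was at 1.63, 0.68, 1.59 and 2.06 in CD27 single positives and 0.95, 0.80, 0.75, 2.94 and 2.13 in double positives. It was at 0.38, -0.05, 0.99 and 0.31 in double-low cells and 0.79, 0.78, 0.63, 1.76 and -0.44 in CD11b single positives. The ranges overlapped, and the difference was 0.95 ± 0.35 or 1.93-fold (adjusted p = 0.200). All 3 UBA1 probes gave nearly this value (0.95, 0.92 and 1.02). The highest UBA1 level (2.94) was that of double-positive replicate 4, the dimmest array. Without that array the difference was 0.77, the smallest on leaving out an array. UBA7, the E1 of ISG15, was the only E1 with an estimate below 0 (-0.77 ± 0.64), and it was -0.28 without double-positive replicate 1, whose level was -5.33.

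Of the E2 enzymes, 9 of 16 estimates were above 0. UBE2D2, an E2 that works with many ligases, was highest in double positives, at 0.21, -0.75, 0.27, 2.15 and 0.12. It was at -0.59, -0.61, -2.81 and -1.42 in CD27 single positives, -2.55, -2.38, -0.55 and -2.40 in double-low cells, and -3.29, -1.22, -1.04, -0.06 and -4.41 in CD11b single positives. Double positives overlapped with each of the other subsets in 1 or 2 of their arrays, and the CD27 difference was 1.51 ± 0.57 (adjusted p = 0.201). UBE2D2 had its highest level (2.15) on double-positive replicate 4, the dimmest array. Without that array the distance between its highest and lowest subset mean went from 2.41 to 1.97. Its relative UBE2D4 ran the other way, at 0.67, 0.89, 1.09 and 1.58 in double-low cells and 0.36, -0.27, 1.05, 0.72 and 0.26 in CD11b single positives. It was at 0.54, -0.18, -0.06 and 0.05 in CD27 single positives and -0.37, -0.36, 1.02, -0.15 and -0.28 in double positives. Apart from 1 double-positive array, CD27+ levels lay below all double-low levels. The difference was -0.71 ± 0.27 (adjusted p = 0.201), and its 3 probes gave -0.71, -0.49 and -0.94. UBE2L6, the E2 of ISG15, gave 0.49 ± 0.34, and UBE2M and UBE2F, those of NEDD8, gave -0.23 and -0.22.

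**Figure D3:**
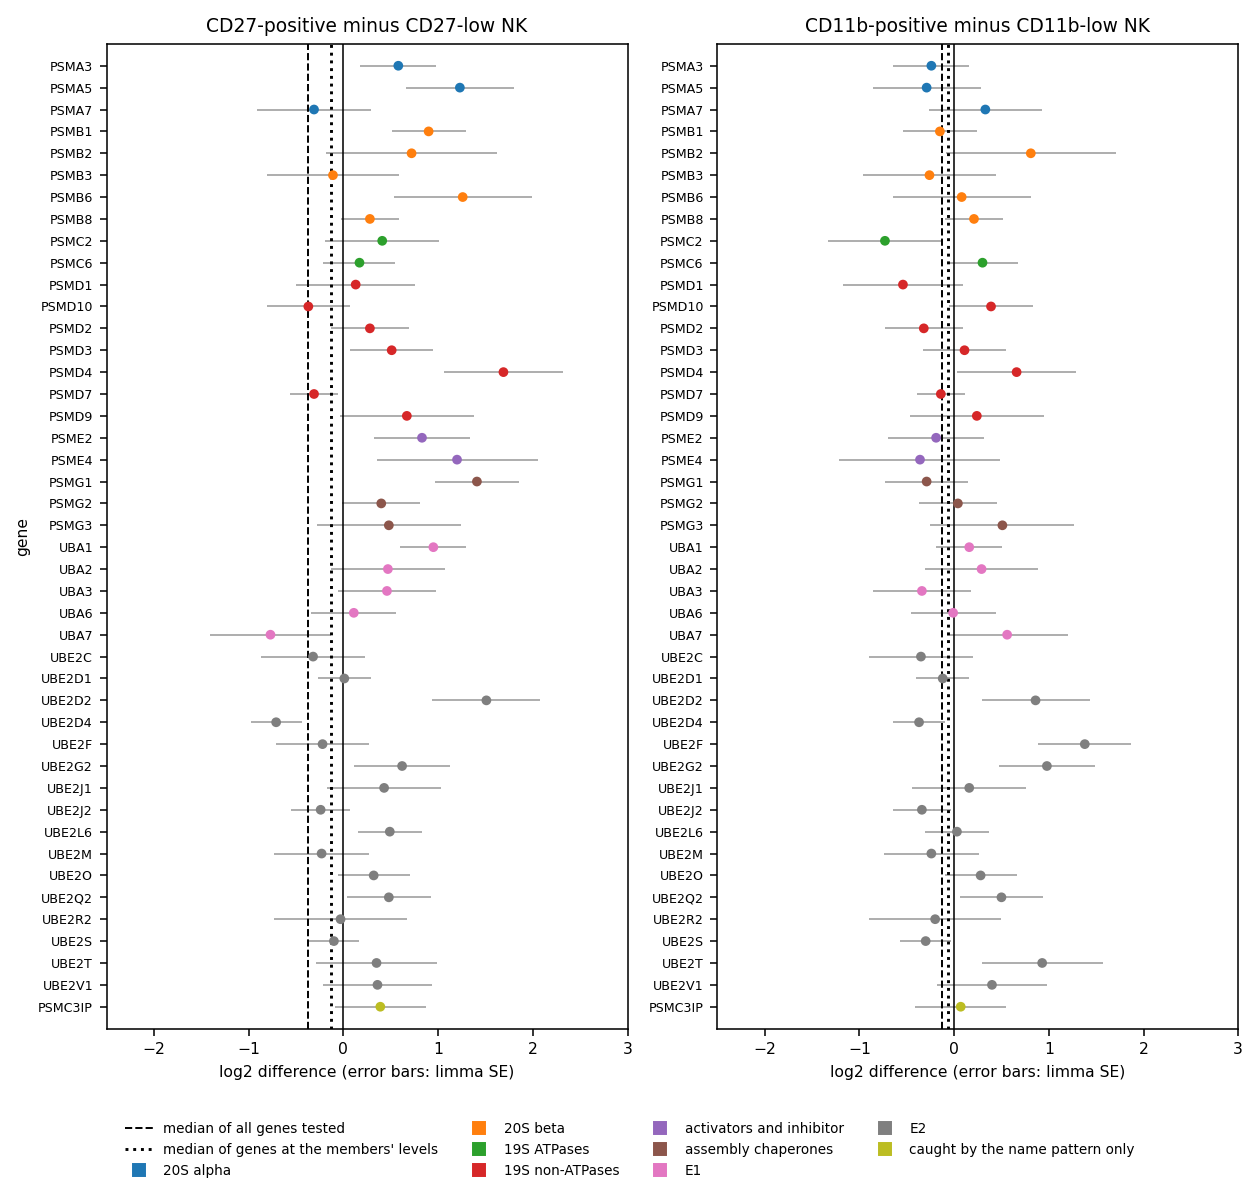
Differences for 44 members along the 2 sort markers (left, CD27+ minus CD27lo; right, CD11b+ minus CD11blo) in log2 units with the limma SE, and the medians of all genes (dashed) and of genes at the members' levels (dotted). On the left 41 of 44 points lie above the dashed line at -0.37, and on the right 26 of 44 lie above -0.13.

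The shift toward CD27+ cells differed between slides. On slide 1 the members' median exceeded that of all genes by 1.14, with 41 of 45 members above it, while on slide 2 the excess was 0.07, with 25 above. Slide 2 held only 1 array each of double positives and CD11b single positives, so its value leans on these. On slide 1 array signal moved with the shift: the CD27+ arrays had 75th percentiles of 1314 to 1897 and the CD27lo arrays 622 to 1061. On slide 2 these ranges overlapped, at 817.9 to 1439 and 199.6 to 1396. On slide 1 the median deviation of the members from their NK means was 0.33, 0.34, 0.47 and 0.88 on the CD27+ arrays and -0.50, -0.44, -0.29 and 0.09 on the CD27lo arrays. For all genes it was -0.39 to -0.17 and 0.18 to 0.42 on these arrays, in the reverse order. On slide 2 the members' deviation was 0.14 and 0.56 in CD27 single positives and 0.09 and -0.16 in double-low cells. It was -0.39 on the double-positive array there and 0.12 on the CD11b single-positive array. Slide 3 held no CD11blo arrays. There the members' deviation in replicate 4 was -0.46 in double positives and 0.51 in CD11b single positives, toward CD27lo cells. In replicate 5 it was 1.02 and -0.29, toward CD27+ cells. The 75th percentiles of these arrays were 180.0 and 1251 in replicate 4 and 1369 and 578.2 in replicate 5. The part of array signal in the members' shift was not tested. Of the members named above, 6 were followed on slides 1 and 2. The sign was the same on both for PSMG1 (1.46 and 0.98), PSMD4 (1.15 and 1.91), UBA1 (0.54 and 0.65) and UBE2D4 (-0.51 and -0.68). It differed for UBA7 (-2.09 and 0.72) and PSMD7 (-0.50 and 0.09). Of the B cell markers, 7 of 8 were below 0 for CD27 with a median of -0.52, against 8047 of 12185 genes and a median of -0.37. Relative to the all-gene median, 3 markers were higher and 5 lower. The summed level of the B cell markers was 0.77 to 2.10 in the CD27+ and 0.69 to 3.30 in the CD27lo subsets. Their part was not tested.

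With array weights, 8 members passed in the CD27 comparison (limma), against 32.4% of all genes. Those higher in CD27+ cells were PSMG1 (1.23, adjusted p = 0.0232), PSMB1, PSMB6, PSMA5, PSMA3, UBA1 and UBA3. UBE2D4 was lower (-0.81, adjusted p = 0.0196).

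**Figure D4:**
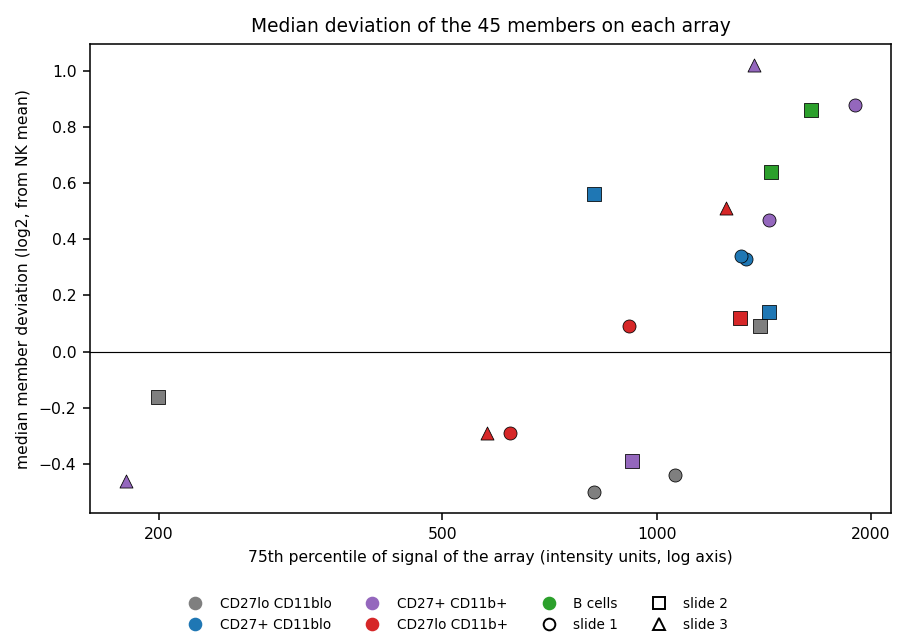
Median deviation of the 45 members from their NK means on each array (vertical axis, log2) against the 75th percentile of signal of the array (horizontal, log axis), coloured by group and shaped by slide. The highest points are double-positive replicate 5 (1.02) and replicate 1 (0.88) and B cell replicate 1 (0.86), and the lowest are double-low replicate 1 (-0.50) and double-positive replicate 4 (-0.46).

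The sort on CD11b compared 10 CD11b+ with 8 CD11blo arrays. No member was called, against 0.0164% of all genes (2 genes, 1 of them PRF1, the cytotoxic pore-forming perforin, at 1.95 ± 0.31). At an unadjusted p below 0.05 there was 1 member (2.22%) against 5.05% of genes. The members' median was 0.07 against -0.13 for all genes, with 27 of 45 members above the latter. On slide 1 41 members were above it and on slide 2 13 were, so the slides did not show 1 direction.

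The member with the lowest p was UBE2F, an E2 of NEDD8. Its levels were -1.35, -2.56, -1.88, -1.61 and -1.09 in double positives and -2.74, -0.79, -1.99, -1.72 and 0.75 in CD11b single positives. They were -2.45, -2.99, -3.74 and -2.24 in double-low cells and -1.67, -3.88, -4.47 and -1.56 in CD27 single positives. The CD11b+ arrays ran higher (-2.74 to 0.75) than the CD11blo arrays (-4.47 to -1.56), with overlap between -2.74 and -1.56. The difference was 1.38 ± 0.49 or 2.60-fold (unadjusted p = 0.0119, adjusted p = 0.944). Its second probe gave 1.16, and the slides gave 0.89 and 1.07. UBE2M, the other E2 of NEDD8, gave -0.24. UBE2G2 gave 0.98 ± 0.51 overall but 0.98 on slide 1 and -0.78 on slide 2, and UBE2D2 gave 0.86 ± 0.57, with 0.27 and 1.41 on the slides. The lowest estimates were those of PSMC2 (-0.73), PSMD1 (-0.54) and UBE2D4 (-0.37). PSMC2 was 0.50 on slide 1 and -1.85 on slide 2, and UBE2D4 was -0.64 and 0.37, so neither kept its sign.

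The single positives are the ends of the sort, and their comparison shares arrays with those on CD27 and CD11b. Between them no member and 0% of all genes were called, and 2 members (4.44%) against 5.26% of genes had an unadjusted p below 0.05. The members' median was -0.18, toward CD27 single positives, against 0.19 for all genes, and 38 of 45 members were below the latter. On slide 1 12 members were above it and on slide 2 16. Left-out arrays moved the main count of 7 above it to 15 (CD11b single-positive replicate 1, CD27 single-positive replicate 4), 11 (CD27 single-positive replicate 2, CD11b single-positive replicate 5) or 4 (CD11b single-positive replicate 4). PSMG1 was the only member whose levels did not overlap, with all 5 CD11b single-positive arrays (-3.17 to 0.52) below all 4 CD27 single-positive arrays (0.73 to 1.42). Among all genes 1.18% were lower without overlap. The PSMG1 difference was -1.70 ± 0.63 or 3.24-fold (adjusted p = 0.813). UBE2F gave 1.59 ± 0.70 and UBA7 1.33, toward CD11b single positives. PSMA5 gave -1.52 (-1.44 and -0.32 on slides 1 and 2), PSME4 -1.57 and PSMB1 -1.04 (-1.67 and -0.01). PSMD10 gave 0.76 with its chosen probe and -1.63 with its second.

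**Figure D5:**
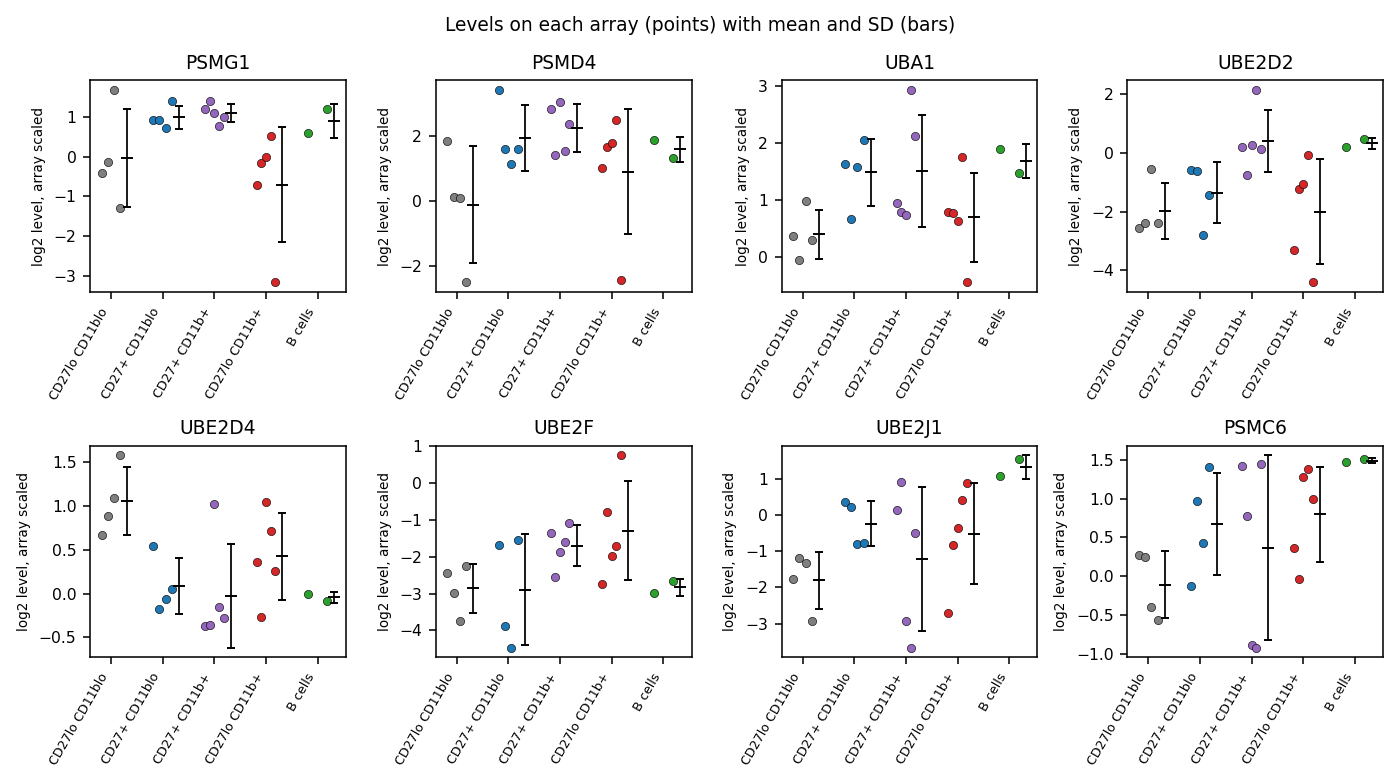
Levels of 8 members on each array (points, log2 scaled to the 75th percentile of the array) by group, with the mean and SD beside them (bars). CD27+ arrays of PSMG1 lie between 0.73 and 1.42, and B cell arrays of UBE2J1 (1.08 and 1.55) lie above all NK arrays.

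Whether the CD27 difference itself depended on CD11b was tested as an interaction. It was called for no member and for 0% of all genes. At an unadjusted p below 0.05 there were 3 members (6.67%), against 1.44% of genes, and all had an adjusted p of 1. PSMB6 gave -3.56 ± 1.47, PSMD1 -2.67 ± 1.26 and UBE2G2 -2.24 ± 1.01. For all 3 the CD27+ mean was above the CD27lo mean among CD11blo cells and below it among CD11b+ cells. Double-low and CD27 single-positive levels of PSMB6 were -2.70, -1.98, -0.38 and -4.32 against 0.43, 0.87, -0.64 and 2.14. They were -1.01, 0.19, -0.96, -0.66 and 0.03 in CD11b single positives and 0.67, 0.39, -2.14, -5.11 and 1.20 in double positives. The 2 dimmest arrays hold the lowest levels of PSMB6 in their subsets, and their part was not tested for this term.

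Other genes of the pathway, taken from lists that do not depend on the name pattern, gave no call in any of these comparisons. Among 9 measured genes of ubiquitin and its relatives, 7 were above 0 in the CD27 comparison with a median of 0.64, and 6 were below 0 between NK and B cells with a median of -0.56. ISG15, a ubiquitin-like protein induced by interferon, gave 1.69 ± 0.60 between NK and B cells (adjusted p = 0.115). Of 10 other proteasome subunits and genes that control assembly or expression, 6 were above 0 for CD27 and 4 below, with a median of 0.00. SEM1, a small 19S subunit, gave 1.11 ± 0.41 (adjusted p = 0.199), and ADRM1, a ubiquitin receptor of the 19S regulator, gave -0.63 ± 0.30 (adjusted p = 0.223). Of 9 other enzymes and partners, 6 were above 0 for CD27 and 3 below, from -0.97 to 1.64 with a median of 0.55. Among them NAE1, which pairs with UBA3 to activate NEDD8, gave 1.08 ± 0.41 (adjusted p = 0.202). Among 5 shuttles and segregase genes, 3 were above 0 for CD27 and 2 below, with a lowest value of -0.73 and a median of 0.62. The highest was VCP, the ATPase that extracts ubiquitinated proteins, at 1.71 ± 0.42 (adjusted p = 0.198). Of 8 genes of antigen processing, 7 were above 0 for CD27 with a median of 0.49. The transporter genes TAP1 and TAP2, which carry peptides to MHC class I, gave 0.59 ± 0.55 and 0.63 ± 0.37. Between NK and B cells TAP1 gave -0.15 ± 0.83 and TAP2 -0.04 ± 0.56.

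Where a member had several probes, they could be set side by side. There were 14 such members with 18 further probes. For CD27, 15 of 18 gave a difference within 0.5 of the chosen probe, and 4 had the other sign. Between NK and B cells 14 of 18 were within 0.5 and 3 had the other sign, the largest gap (1.38) being that of UBE2T, an E2 of DNA crosslink repair.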

How the data were processed

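Per the submitters' processing notes, the software used was Agilent Feature Extraction (version 10.7.1.1) and Partek (no version listed). Per the file headers, the deposited scanner values are intensity after background subtraction and detrending. The deposited matrix holds log2 values by the authors, used as an alternative. Control spots and outlier flags were left out, and 20417 of 58659 probes (34.8%) matched a gene by accession, without version, through the RefSeq table (T2T-MFA8v1.1). Each gene was represented by its brightest probe on average. Genes well above background on at least 4 of 18 NK arrays (12185), or 2 of 20 arrays for B cells (12383), were tested. They entered limma 3.58.1 in R 4.3.3 (lmFit, eBayes with trend and robust), with Benjamini-Hochberg adjustment at 0.05. Within a fit all arrays shared 1 estimate of spread per gene. For NK versus B cells all 20 arrays shared it, so it came mostly from the 18 NK arrays. Normexp (offset 50) used spot medians, since spot means are not in the files used here. The code was tested on simulated data. Members, lists and tests were chosen with earlier results of these data known. Genes were named by role, and by the 3 lowest p in each direction of a comparison. Genes of similar signal were chosen for description after the data were seen. Sequences of the members were not used here. All counts cover the 45 members; 1 member and some other genes are not reported here by name, and that member is left out of the plots of single members.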

Additional observations from a re-analysis of the deposited data

Results flagged for a closer look

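In 11 of 180 groups of arrays (45 members in 4 NK subsets) 1 array lay far from the others by Dixon's test, where chance gives about 9 (1 in 20). Double-positive replicate 4, the dimmest array, was far below the rest for PSMG3 (-5.04, others 0.76 to 1.90) and UBA3 (-3.09, others 0.47 to 1.53). Double-positive replicate 3 was low for PSMB1 (-1.72, others 0.50 to 1.23) and UBE2G2 (-1.15, others 1.88 to 3.05) and high for UBE2D4 (1.02, others -0.37 to -0.15). Double-positive replicate 1 was low for UBA7 (-5.33, others -0.88 to 0.27). Among double-low arrays, replicate 2 was low for UBE2D1 (-0.04, others 0.74 to 0.80), replicate 3 high for UBE2D2 (-0.55, others -2.55 to -2.38) and replicate 4 low for UBE2G2 (-0.62, others 0.44 to 0.63). CD27 single-positive replicate 4 was high for PSME4 (0.27, others -1.37 to -1.11), and CD11b single-positive replicate 2 was high for UBE2O (-0.23, others -1.82 to -1.41).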

How the results depend on the processing

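Of 774 values of named members from refits, 762 kept their direction and side of the threshold, 9 newly passed it and 3 reversed. No member passed in a main fit, so none could lose a call. Distances between the highest and lowest subset mean have no direction and could not reverse. The count of 762 therefore says little about robustness. The reversals among refits were PSMD7 for CD27 (0.02) and PSMD10 between the single positives (-0.44) with the mean of all probes, and PSMC2 for CD11b (0.05) with array weights. Array weights called 206 genes among the subsets, 3953 genes and 8 members for CD27, 5 genes for CD11b, 4 between the single positives, and 5673 genes and 16 members between NK and B cells. Normexp called 3 genes among the subsets and 1 for CD27. For CD11b 1 gene was called with the mean of probes, with the replicate block and without the 2 dimmest arrays, and 0 with slide as a block. Between NK and B cells, slide as a block called 600 genes and left 2 members above the median of all genes. Within the B cells' slide 1921 genes and 3 members were called, with 2 above. The replicate block called 421 genes and 2 members there, among them PSMA7 (-2.33, adjusted p = 0.0331 in limma). That block joined the B cell arrays, from females on slide 2, with NK replicates 1 and 2, from males on slide 1. It thus matched no animals in this comparison, and its calls carry little weight. The donor as a random block called 369 genes and no member. Within slides 1 and 2, members above the median numbered 41 and 13 for CD11b and 12 and 16 between the single positives, and 25 for CD27 on slide 2 (excess 0.07). Of 36 values of named members within 1 slide, which have no test, 10 lay further from the main value than the SE of a difference between a pair of estimates that each have the main SE, and 5 changed sign: UBA7 (0.72) and PSMD7 (0.09) for CD27 and UBE2G2 (-0.78) and UBE2D4 (0.37) for CD11b on slide 2, and PSMC2 for CD11b (0.50) on slide 1. The cause of these changes was not tested, beyond the fewer arrays within a slide. Main calls between NK and B cells were 58.8% higher in NK cells, against 35.3% after quantile normalization, 38.2% with normexp and 34.6% in the deposited matrix. Scaling by quantiles moved the median of all genes from 0.36 to 0.17 there and from -0.37 to -0.13 for CD27, and members relative to it from -0.95 to -0.87 and from 0.75 to 0.59.

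Leaving out 1 array called 57 (without B cell replicate 1; 63 without replicate 2) to 724 genes (without CD11b single-positive replicate 4) between NK and B cells, 0 to 1 among the subsets, for CD27 and between the single positives, and 1 to 4 for CD11b. Members above the median between the single positives then numbered 4 to 15. No array left out gave a called member. Arrays of 1 replicate number correlated at -0.30 to 0.42 in their deviations (median 0.22, 17 of 25 pairs over 0.1), against a median of -0.07 and 22 of 96 pairs over 0.1 for different numbers, and 12 of 18 NK arrays correlated best with an array of their own number. Arrays of 1 number were thus more alike, but some numbers join animals of different age or sex and not every pair was over 0.1, so the main fits have no block. Signal near background limits 13 members on 1 or 2 arrays each.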
